A study of Mus musculus with 20 samples.

Results

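The genes Nfkbia, Nfkb1, Nfkb2, Relb, Tnfaip3, Ccl20, Cxcl1, Cxcl2 and Icam1 of the NF-kB system were followed at the RNA level after overexpression of active Notch1 in mouse lung epithelial cells. Nfkbia and Tnfaip3 encode inhibitors of the pathway, Nfkb1, Nfkb2 and Relb subunits of the transcription factor, Ccl20, Cxcl1 and Cxcl2 chemokines, and Icam1 an adhesion molecule. Of these 9 genes, 8 had rows in the table of ratios and Nfkb1 was not analysed here. The 8 genes had 18 rows, 11 of them for Icam1 and 1 for each of the others, and all 18 rows passed the filter on missing values. They are 8 of 17051 genes tested. The genes were chosen by symbol, with earlier results of these data known. No measured value entered the rule that lists them.

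MLE12 is a mouse alveolar epithelial line immortalised by a viral large T antigen. Cells received the NICD1-pIRES-DsRed2 plasmid, which carries the intracellular domain of Notch1 (NICD1), or the empty vector, both by transfection with Lipofectamine2000, so that the control cells had also taken up plasmid DNA by lipofection. RNA was taken 12, 24 and 48 h after transfection, and 6 arrays were made for 12 h and 7 for each later time. Each 2-colour array set NICD1 RNA against empty vector RNA of the same time, with the dyes swapped between arrays, and the design text calls the replicates independent. Neither the promoter that drives NICD1 nor the share of cells transfected is stated in the labels. A ratio of bulk RNA cannot tell a change in the number of cells of a kind from a change in RNA per cell. It also gives no level, so the identity of the cells could not be read from markers.

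Values are log2 ratios of NICD1 over empty vector, so that a positive value means more RNA with NICD1. The single-array ratios of a gene given below still hold the dye effect, which the fitted ratios leave out. On the log2 scale that effect was -0.32 for Relb, -0.25 for Tnfaip3 and -0.19 for Icam1, and 0.02 to 0.12 for the others. The direction rests on the response of Notch targets: with 12 h replicate 3 and 48 h replicate 3 turned, Nrarp, an inhibitor of Notch that Notch itself induces, had fitted ratios of 2.08 at 12 h, 2.61 at 24 h and 2.29 at 48 h. The 48 h arrays are described below as 2 sets, replicates 5 to 7 and replicates 1 to 4. Replicates 5, 6 and 7 had correlations across genes of 0.653 to 0.686 with each other. Replicates 1 to 4 had 0.102 to 0.322 with each other and 0.0505 to 0.399 with replicates 5 to 7. These ranges overlap, so replicates 1 to 4 are a set only as the remaining arrays. The ratios of replicates 5 to 7 spread more widely across genes, with an SD of 0.693 to 0.787 against 0.438 to 0.597 on the other 17 arrays. The main results at 48 h are therefore given with and without those 3 arrays. Of 10 listed markers of fibroblasts, leukocytes and endothelium, 8 were measured and 1 passed at 48 h, the fibroblast collagen gene Col1a1 at 1.10, while the others lay between -0.48 and 0.36. Of 5 listed alveolar type II markers, 4 were measured and 1 passed, Abca3 at 0.43. Both counts stand beside 27.8% of all genes that passed at 48 h. The part of these markers in the results was not tested.

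NF-kB is a family of dimeric transcription factors held in the cytoplasm by IkB proteins. Signals from cytokine receptors, Toll-like receptors and other sensors lead to the destruction of the inhibitor, and the freed dimers enter the nucleus and bind kappa-B sites. Among the genes they switch on are those of their own inhibitors and precursors, which gives the pathway its feedback, and in lung epithelium those of chemokines that draw in leukocytes.

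Promoter sequences are shown for the inhibitor, subunit and chemokine genes on which the results turn, because most of these windows hold the site that names the pathway. The RefSeq promoter table, on build GRCm38.p6, held 10 windows for 7 of the 9 genes, each 300 bases long, from 250 bases before the start of transcription to 50 after it. Relb and Nfkb1 were not matched in it. The kappa-B consensus, searched on both strands, was found in 8 of the 10 windows, against 8.46% of all 32841 windows. By gene it was found in 6 of the 7, against 9.55% of 27018 genes. Overlapping Nfkb2 windows share the match GGGACTTTCC, which is counted in both. The genes were listed for their place in the NF-kB system, so the excess is a description and no test. The exception among the genes was Icam1, whose window held no match to these letters. GTGGGAA, the core bound by RBPJ, the DNA-binding partner of NICD1, was searched in the same way and found in 0 of the 10 windows, against 6.38% of all windows. TGANTCA, the AP-1 motif, was found in 2 of the 10, against 7.81%. A match is a run of letters and does not show that a factor binds there. The windows below run 5′ to 3′ on the strand of the gene, with kappa-B matches in capitals. They are chr12:55492598-55492897 on the minus strand for Nfkbia, chr19:46304487-46304786 on the plus strand for the first of 3 Nfkb2 windows, chr1:83116516-83116815 on the plus strand for Ccl20, chr5:90890995-90891294 on the plus strand for Cxcl1 and chr5:90903649-90903948 on the plus strand for Cxcl2.
Nfkbia: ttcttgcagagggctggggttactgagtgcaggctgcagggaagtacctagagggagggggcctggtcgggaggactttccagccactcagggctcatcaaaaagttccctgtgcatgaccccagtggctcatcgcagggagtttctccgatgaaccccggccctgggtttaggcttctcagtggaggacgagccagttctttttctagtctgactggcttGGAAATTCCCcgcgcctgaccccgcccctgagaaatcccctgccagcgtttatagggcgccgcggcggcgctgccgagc
Nfkb2: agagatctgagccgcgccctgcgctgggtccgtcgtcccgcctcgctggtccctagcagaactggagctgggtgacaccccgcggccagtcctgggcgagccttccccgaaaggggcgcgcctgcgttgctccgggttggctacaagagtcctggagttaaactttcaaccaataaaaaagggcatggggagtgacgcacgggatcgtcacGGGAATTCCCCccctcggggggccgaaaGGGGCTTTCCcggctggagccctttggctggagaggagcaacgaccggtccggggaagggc
Ccl20: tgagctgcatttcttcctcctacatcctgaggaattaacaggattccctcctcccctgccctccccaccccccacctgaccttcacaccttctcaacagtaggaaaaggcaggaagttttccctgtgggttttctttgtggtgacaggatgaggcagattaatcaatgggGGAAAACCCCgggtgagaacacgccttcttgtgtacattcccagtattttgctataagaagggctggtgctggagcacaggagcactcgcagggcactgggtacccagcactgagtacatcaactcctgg
Cxcl1: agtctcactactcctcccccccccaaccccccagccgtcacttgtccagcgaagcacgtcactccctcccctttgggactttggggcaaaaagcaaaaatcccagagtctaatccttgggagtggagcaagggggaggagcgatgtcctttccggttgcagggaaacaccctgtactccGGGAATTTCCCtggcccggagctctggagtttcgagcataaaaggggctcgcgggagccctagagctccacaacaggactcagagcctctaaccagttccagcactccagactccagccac
Cxcl2: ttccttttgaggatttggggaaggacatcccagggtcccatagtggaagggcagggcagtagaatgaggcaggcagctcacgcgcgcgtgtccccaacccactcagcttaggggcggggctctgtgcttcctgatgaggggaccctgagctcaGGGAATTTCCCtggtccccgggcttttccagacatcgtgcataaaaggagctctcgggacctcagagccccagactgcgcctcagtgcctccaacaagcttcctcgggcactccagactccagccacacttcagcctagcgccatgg

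With the start base counted as 0, the match lay at -29 to -20 in Nfkbia and at -80 to -71 in Ccl20. Nfkb2 held 2 runs in its first window, GGGAATTCCCC from -39 and GGGGCTTTCC from -11. Cxcl1 and Cxcl2, whose starts lie 12654 bases apart on chromosome 5, held the same run, GGGAATTTCCC, from -71 and from -97.

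At 12 h none of the 8 genes passed the test, against 0.282% of all genes, and none had an unadjusted p below 0.05 in limma, as 5.36% of all genes had. Nfkbia was the gene that passed at 24 h, where 1.67% of all genes did (0.369% as higher). At 48 h 5 of the 8 passed, all as higher: Nfkb2, Ccl20, Nfkbia, Relb and Tnfaip3, with fitted ratios between 0.30 and 0.64. At that time 27.8% of all genes passed (14% as higher), so changes were common across the transcriptome. The median ratio of the 8 genes was 0.05 at 12 h, 0.02 at 24 h and 0.31 at 48 h, beside medians of 0.00, 0.01 and -0.01 over all genes. Without 48 h replicates 5, 6 and 7, 2 of the 8 genes passed at 48 h, Ccl20 and Cxcl1, and 3.69% of all genes did. With the 7 arrays of 48 h fitted alone, none of the 8 passed in limma and 1.37% of all genes did; Ccl20 had the lowest adjusted p, 0.0603.

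**Figure D1:**
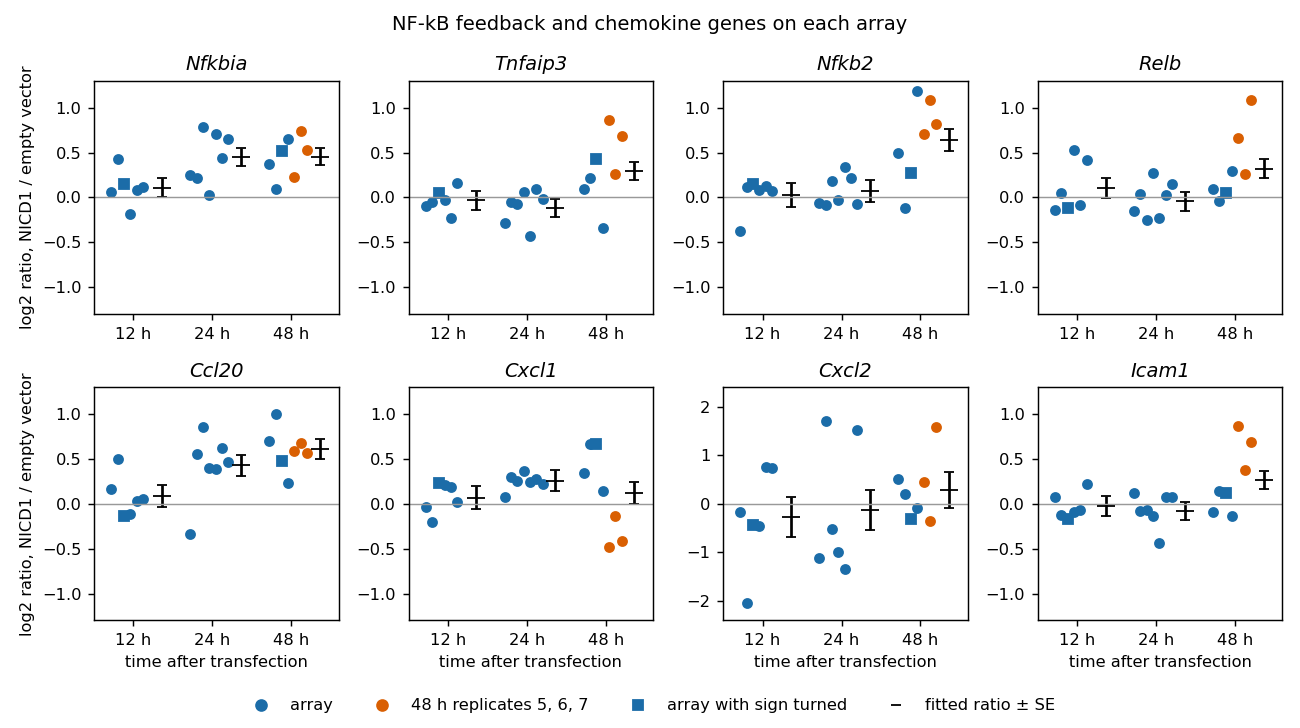
Log2 ratio of NICD1 over empty vector (y axis) for each gene on each array, by hours after transfection (x axis), with orange circles for 48 h replicates 5, 6 and 7, squares for the arrays whose sign was turned, and black bars for the fitted ratio with its standard error. Nfkbia and Ccl20 lie above 0 on all 7 arrays at 48 h, Cxcl1 splits into positive and negative arrays there, and Cxcl2 has a wider axis because its arrays range from -2.04 to 1.70.

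Nfkbia encodes IkB-alpha, the inhibitor that NF-kB restores soonest after its release. Its lowest, median and highest ratios were -0.18, 0.10 and 0.43 at 12 h, 0.02, 0.45 and 0.78 at 24 h, and 0.10, 0.52 and 0.74 at 48 h. It was above 0 on 7 of 7 arrays at both later times, which 1.89% of all genes were at 24 h and 7.38% at 48 h, and those arrays overlapped the range at 12 h. The fitted ratio was 0.45 ± 0.10 (SE, n = 7, adjusted p = 0.0162 by limma) at 24 h, a 1.36-fold rise. It was 0.46 ± 0.10 (n = 7, adjusted p = 0.00237) at 48 h, a 1.37-fold rise. At 48 h the ratio ran from 0.10 to 0.65 on replicates 1 to 4 and from 0.23 to 0.74 on replicates 5 to 7, so the 2 sets overlapped. Without replicates 5 to 7 the 48 h ratio was 0.41 ± 0.13, similar in size, with an adjusted p of 0.0891. The 24 h call was lost when replicate 3, 5, 6 or 7 of that time was left out, with adjusted p up to 0.0922. With the 2 turned arrays kept as deposited, the ratios were 0.45 at 24 h (adjusted p = 0.123) and 0.31 at 48 h (adjusted p = 0.0765).

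Tnfaip3 encodes A20, a ubiquitin-editing enzyme that damps the signal upstream of the IkB kinase. Its lowest, median and highest ratios were -0.23, -0.04 and 0.16 at 12 h, -0.43, -0.05 and 0.09 at 24 h, and -0.35, 0.26 and 0.86 at 48 h. Unlike Nfkbia, it had 2 of 7 arrays above 0 at 24 h, where its fitted ratio was -0.12 ± 0.10 (adjusted p = 0.917). At 48 h the fitted ratio was 0.30 ± 0.10 (n = 7, adjusted p = 0.0293 by limma), a 1.23-fold rise seen on 6 of 7 arrays. The higher values came from replicates 5 to 7, at 0.26 to 0.86, against -0.35 to 0.43 on replicates 1 to 4. Without those 3 arrays the ratio was 0.10 and the adjusted p 0.653. With the turned arrays as deposited it was 0.18, with an adjusted p of 0.303.

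Nfkb2 encodes the p100 precursor, which holds RelB in the cytoplasm until it is processed to the p52 subunit of the non-canonical pathway. Its lowest, median and highest ratios were -0.37, 0.10 and 0.15 at 12 h, -0.08, -0.03 and 0.34 at 24 h, and -0.12, 0.71 and 1.19 at 48 h. At 48 h the ratio ran from 0.71 to 1.09 on replicates 5 to 7 and from -0.12 to 1.19 on replicates 1 to 4, so the 2 sets overlapped. At 48 h the fitted ratio was 0.64 ± 0.12 (n = 7, adjusted p = 0.00107 by limma), a 1.56-fold rise and the greatest of the 8 genes. It was 0.08 ± 0.12 at 24 h (adjusted p = 0.987). Without replicates 5 to 7 the 48 h ratio was 0.46 ± 0.15 and its adjusted p 0.109.

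Relb encodes the subunit that pairs with p52 and p100. Its lowest, median and highest ratios were -0.14, -0.02 and 0.53 at 12 h, -0.25, 0.03 and 0.28 at 24 h, and -0.04, 0.27 and 1.09 at 48 h. Its 48 h arrays overlapped both earlier times, with the highest values again on replicates 5 to 7 (0.27 to 1.09, against -0.04 to 0.30 on replicates 1 to 4). The fitted ratio at 48 h was 0.32 ± 0.11 (n = 7, adjusted p = 0.0277 by limma), a 1.25-fold rise, and 0.10 without those 3 arrays (adjusted p = 0.65).

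Ccl20 encodes the chemokine that attracts cells bearing the receptor CCR6, among them dendritic cells and some lymphocytes. Its lowest, median and highest ratios were -0.14, 0.04 and 0.50 at 12 h, -0.34, 0.47 and 0.86 at 24 h, and 0.23, 0.59 and 1.01 at 48 h. Of the 24 h arrays, 6 of 7 were above 0 and replicate 1 alone was below, while at 48 h all 7 were above 0. The fitted ratio at 48 h was 0.61 ± 0.11 (n = 7, adjusted p = 0.000906 by limma), a 1.53-fold rise. Both sets of 48 h arrays showed it, at 0.23 to 1.01 on replicates 1 to 4 and 0.57 to 0.68 on replicates 5 to 7, and without the latter the ratio was 0.60 ± 0.16 (adjusted p = 0.0495). At 24 h the ratio was 0.43 ± 0.11 (n = 7, adjusted p = 0.0734), 1.35-fold, which did not pass. It passed there without 24 h replicate 1, with an adjusted p of 0.00418.

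Cxcl1 and Cxcl2 encode close relatives that attract neutrophils. For Cxcl1 the lowest, median and highest ratios were -0.21, 0.11 and 0.23 at 12 h, 0.08, 0.26 and 0.36 at 24 h, and -0.48, 0.14 and 0.67 at 48 h. At 24 h all 7 arrays were above 0 with an SD of 0.0876, and the fitted ratio of 0.26 ± 0.12 had an adjusted p of 0.562. At 48 h the arrays parted: replicates 1 to 4 lay between 0.14 and 0.67 and replicates 5 to 7 between -0.48 and -0.13. The 2 sets did not overlap for this gene, as was so for 30.1% of 15389 genes (14.8% with replicates 5 to 7 below). The fitted ratio at 48 h was 0.12 ± 0.12 over all 7 arrays (adjusted p = 0.495 by limma). It was 0.46 ± 0.10 without replicates 5 to 7 (adjusted p = 0.0157), where it passed.

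Cxcl2 was the least precisely measured of the 8 genes. Its lowest, median and highest ratios were -2.04, -0.30 and 0.77 on 6 arrays at 12 h, -1.34, -0.75 and 1.70 on 6 at 24 h, and -0.35, 0.21 and 1.58 on 7 at 48 h. Arrays lay on both sides of 0 at each time, and the SD within a time was 0.665 to 1.38, above that of the other 7 genes at each time. Its fitted ratios were -0.27 ± 0.41, -0.12 ± 0.41 and 0.29 ± 0.38, and none passed. At 48 h the range of 2 SE around the ratio ran from -0.47 to 1.04, which holds the ratios of Ccl20 and Nfkb2, so a change of that size was not detectable for Cxcl2 on these arrays.

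**Figure D2:**
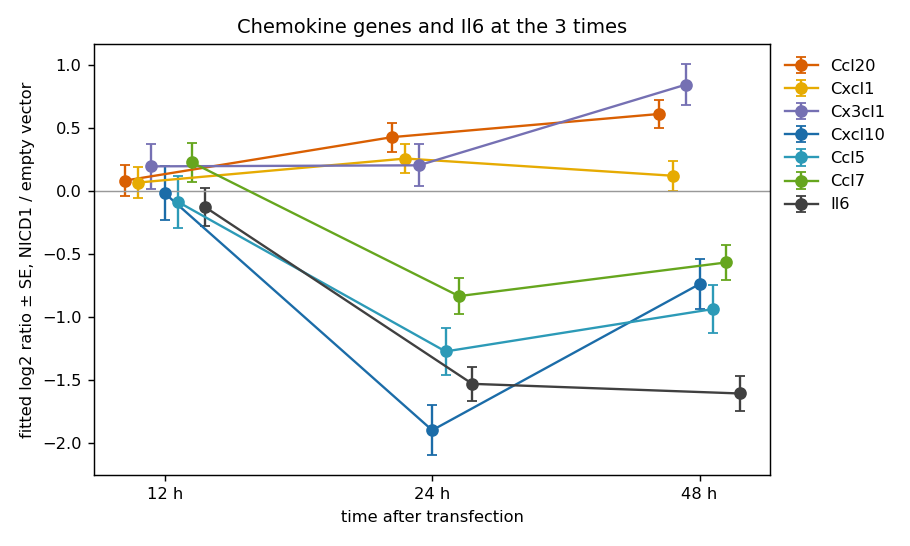
Log2 ratio of NICD1 over empty vector for Ccl20, Cxcl1, 4 other chemokine genes and Il6 (y axis) at 12, 24 and 48 h (x axis), with points for fitted ratios and bars for their standard errors. Ccl20 has ratios of 0.08, 0.43 and 0.61 while Cxcl10 and Ccl5 lie below 0, at -1.90 and -1.28 at 24 h.

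Icam1 encodes an adhesion molecule of epithelium and endothelium that leukocyte integrins bind. The mean of its 11 rows had lowest, median and highest values of -0.17, -0.08 and 0.22 at 12 h, -0.44, -0.07 and 0.12 at 24 h, and -0.13, 0.14 and 0.87 at 48 h. At 48 h replicates 5 to 7 stood at 0.38 to 0.87 and replicates 1 to 4 at -0.13 to 0.14, without overlap, which 15.3% of genes showed in this direction. The fitted ratio at 48 h was 0.27 ± 0.10 (n = 7, adjusted p = 0.055 by limma), 1.21-fold, which did not pass, and 0.01 ± 0.09 without replicates 5 to 7 (adjusted p = 0.966).

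The 11 rows of Icam1 did not move together. Of these, 10 carry one transcript accession in the annotation and the other row carries another. Over the 20 arrays, the 10 rows correlated with the median of the remaining rows at 0.633 to 0.995 and the other row at -0.503, as a description of rows that share each hybridisation. Over the 17 arrays without 48 h replicates 5 to 7, these correlations were 0.084 to 0.978 for the 10 rows and 0.165 for the other, so the negative value rests on those 3 arrays. On 48 h replicates 5, 6 and 7 the medians of the 10 rows were 1.01, 0.48 and 0.82, while the other row read -0.64, -0.68 and -0.78. Within an array the 10 rows spread with a median SD of 0.0615, and with more than 0.2 on 4 of the 20 arrays. Tested singly at 48 h, 3 of the 11 rows passed, with log2 ratios of 0.39 to 0.43, where 24.3% of all rows did. Among them were the rows that agreed least of the 10 with the rest, at correlations of 0.633 and 0.71. On 48 h replicate 4 those rows read 0.57 and 0.44, where the median of the 10 rows was -0.28. The row of the other accession was at -0.26 ± 0.16 (adjusted p = 0.258 by limma). Leaving that row out, an alternative chosen with the values in view, gave a gene mean of 0.32 at 48 h with an adjusted p of 0.0446. The gene mean of all 11 rows also passed with the 2 turned arrays left out (adjusted p = 0.0449), and with rows measured on all 20 arrays the adjusted p was 0.0388. In that last fit the ratio was 0.27, as in the main fit, and 14135 genes were adjusted over. In the other settings that dropped no array it did not pass. The adjusted p by limma ran there from 0.0559 without the dye term to 0.293 with 48 h fitted alone. The labels do not say where the probes lie in the transcript.

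**Figure D3:**
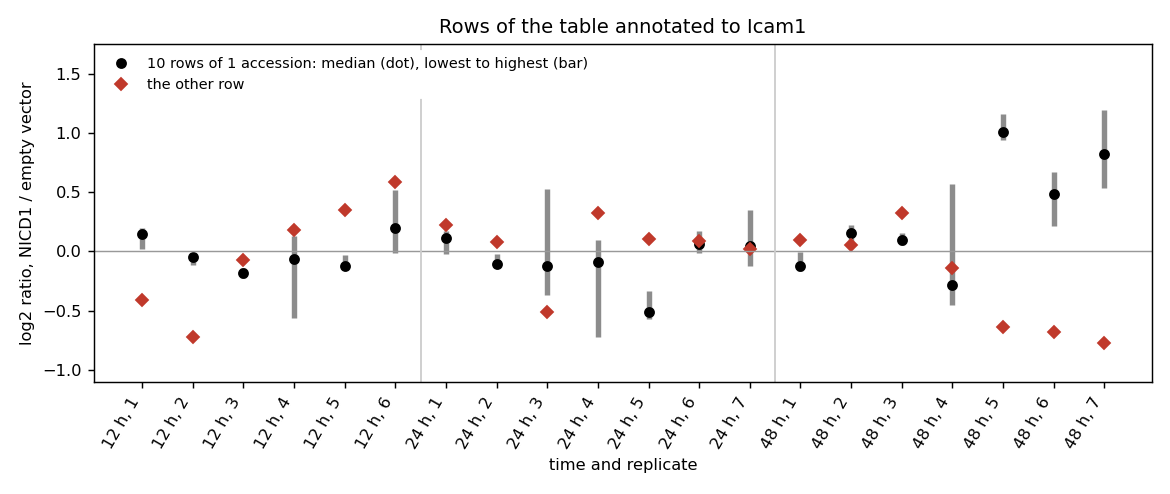
Log2 ratio of NICD1 over empty vector (y axis) for the Icam1 rows on each of the 20 arrays (x axis, by time and replicate), with a black dot for the median of 10 rows, a grey bar from their lowest to their highest, and a red diamond for the other row. On 48 h replicates 5, 6 and 7 the 10 rows have medians of 1.01, 0.48 and 0.82 and the other row is at -0.64, -0.68 and -0.78.

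The ratios were also compared between times. From 12 to 24 h none of the 8 genes passed, where 0.897% of all genes did, and 1 had an unadjusted p below 0.05 in limma, as 5.69% of all genes had. The gain of Nfkbia was 0.34 ± 0.14 (adjusted p = 0.757) and that of Ccl20 0.35 ± 0.17 (adjusted p = 0.897). From 24 to 48 h none passed either, where 2.05% of all genes did, and 4 had an unadjusted p below 0.05, as 24.4% of all genes had. Nfkb2 had the greatest of these differences, 0.57 ± 0.17 (adjusted p = 0.0689), followed by Tnfaip3 at 0.41 ± 0.14 (adjusted p = 0.0848). From 12 to 48 h, a comparison added after the data were seen, Nfkb2 was 1 of 8 to pass, at 0.61 ± 0.18 (adjusted p = 0.0398), where 9.17% of all genes did. That call was kept in 8 of 20 fits that each left out 1 array. Ccl20 had a difference of 0.53 ± 0.17 (adjusted p = 0.0539). The order in which the genes first passed, Nfkbia at 24 h and the others at 48 h, is therefore not matched by a tested difference between 24 and 48 h. On simulated data of this design, a log2 difference of 0.5 between these times was recovered for 1.5% of genes. A missing call therefore does not show that the ratios were equal.

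**Figure D4:**
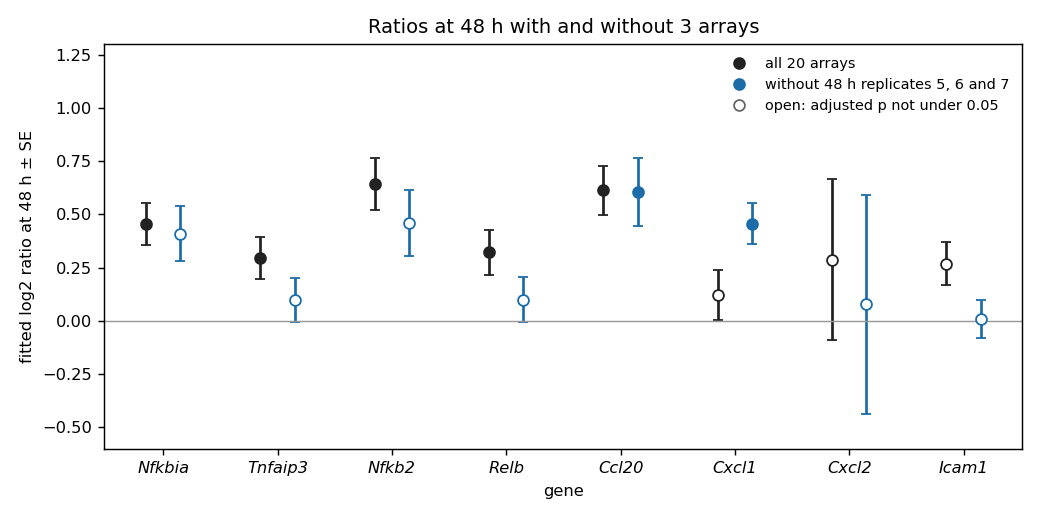
Fitted log2 ratio at 48 h with its standard error (y axis) for each of the 8 genes (x axis), with all arrays (black) and without 48 h replicates 5 to 7 (blue), and with open circles where the adjusted p was not under 0.05. Ccl20 and Nfkbia keep ratios of 0.60 and 0.41 without replicates 5 to 7, whereas Icam1 goes from 0.27 to 0.01 and Cxcl1 from 0.12 to 0.46.

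Around these genes, 123 others of the pathway were listed in 7 groups, of which 102 were measured. None passed at 12 h. At 24 h 8 were lower and 0 higher (7.84%, against 1.67% of all genes), and at 48 h 19 were higher and 20 lower (38.2%, against 27.8% of all genes). Without 48 h replicates 5 to 7, the 48 h counts were 1 higher and 7 lower, where 3.69% of all genes passed. With 48 h fitted alone they were 0 higher and 2 lower, where 1.37% did. Most 48 h calls among these genes were thus lost without replicates 5 to 7. That fit also has fewer arrays, so a lost call alone does not show that a ratio came from those arrays. The counts of each group below are read against the same shares of all genes. The median ratio of the 102 genes was -0.03 at 24 h and 0.03 at 48 h.

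Among 18 other chemokine genes, 3 fell at 24 h and none rose, and at 48 h 6 fell and 2 rose. Without 48 h replicates 5 to 7, 2 fell and 0 rose at 48 h, and with 48 h fitted alone 0 fell and 0 rose. Cxcl10 (-1.90 ± 0.20, adjusted p = 2.49e-06), Ccl5 (-1.28 ± 0.19, adjusted p = 0.000269) and Ccl7 (-0.83 ± 0.14, adjusted p = 0.00125) were the 3 that fell at 24 h by limma. Cxcl10 and Ccl5, ligands of T-cell chemokine receptors, are also known as interferon-responsive genes, and Ifnb1 had ratios of -2.35, -3.44 and -3.17 at the 3 times. The fitted ratio of Ccl20 was above 0 at the times when theirs were below it. At 48 h Cx3cl1, the membrane-bound chemokine fractalkine, was at 0.85 ± 0.17 (adjusted p = 0.00128), and Ccl27a was at -0.61 (adjusted p = 0.00413). Without replicates 5 to 7 neither passed, with Cx3cl1 at 0.42 (adjusted p = 0.163) and Ccl27a at -0.17 (adjusted p = 0.339), whereas Cxcl10 at -1.28 and Ccl5 at -1.51 did. With all 48 h arrays Cxcl10 was at -0.74 and Ccl5 at -0.94. Cxcl10 lay between -0.35 and 0.58 on replicates 5 to 7, against -1.57 to -1.02 on replicates 1 to 4. Ccl5 lay between -0.63 and 0.46 on replicates 5 to 7, against -2.03 to -1.16 on replicates 1 to 4. Of the 4 measured receptors of these chemokines and of ICAM-1, none passed at any of the 3 times.

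Of 21 other NF-kB target genes, 2 fell at 24 h, and at 48 h 4 rose and 5 fell. The cytokine gene Il6 fell at both times, by 1.53 and 1.61 on the log2 scale, and Mmp13, a collagenase, was at -0.94 (adjusted p = 0.00047) at 48 h. In the other direction were Tnfaip2 at 0.63 and Ier3, an early-response gene, at 0.52. Without replicates 5 to 7, 0 of the 21 rose and 3 fell at 48 h: Il6 was at -1.61 and Mmp13 at -0.78 and both passed, while Tnfaip2 at 0.64 (adjusted p = 0.0917) and Ier3 at 0.29 (adjusted p = 0.229) did not. With 48 h fitted alone, 0 rose and 1, Il6, fell.

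Of the 9 other subunit and IkB genes, 1 rose at 48 h. This was Bcl3, a nuclear IkB protein that works with p50 and p52, at 0.75 ± 0.19 (adjusted p = 0.00594). Its value came from replicates 5 to 7, at 1.16 to 2.01 against -0.01 to 0.26 on replicates 1 to 4, and it was 0.11 without them (adjusted p = 0.556). Of the 13 other negative regulators, 3 rose and 3 fell at 48 h. Zc3h12a, which encodes the ribonuclease Regnase-1 that degrades cytokine messenger RNA, was at 0.97 ± 0.16 (adjusted p = 0.000282), and at 0.57 without replicates 5 to 7 (adjusted p = 0.0483). Cyld, a deubiquitinase, was at 0.39, while Trafd1 was at -0.86, Rnf11 at -0.63 and Pdlim2 at -0.50. Without replicates 5 to 7 none of these 4 passed, with Cyld at 0.01, Trafd1 at -0.53, Rnf11 at -0.30 and Pdlim2 at -0.28 and adjusted p-values of 0.178 to 0.984 in limma.

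Of 17 receptor and ligand genes that feed into the pathway, 2 fell at 24 h, and at 48 h 2 rose and 3 fell. The Toll-like receptor genes Tlr3 (-1.55, adjusted p = 3.49e-07) and Tlr2 (-0.51, adjusted p = 0.00102) fell at 24 h. At 48 h Tlr3 was at -1.04 and Tlr2 at -0.32. Without replicates 5 to 7, 2 of the 17 fell and 0 rose at 48 h. Tlr3 was then at -1.21 (adjusted p = 0.000767 by limma) and Tlr2 at -0.38 (adjusted p = 0.0325). With 48 h fitted alone, Tlr3 passed (adjusted p = 0.00682) and Tlr2 did not (adjusted p = 0.128). Tnfrsf1a, the main receptor of tumour necrosis factor, was at 0.67 at 48 h and at 0.24 without replicates 5 to 7 (adjusted p = 0.214), and Il1r1, the interleukin-1 receptor, was at 0.54. Cd40 was lower, at -0.26. Without replicates 5 to 7 neither Il1r1, at 0.50 (adjusted p = 0.207), nor Cd40, at -0.25 (adjusted p = 0.15), passed. Of 20 kinase and adaptor genes, 1 fell at 24 h, and at 48 h 7 rose and 3 fell. Tab3 was at 0.55, Tab1 at 0.47 and Card10 at 0.37, while Traf5 was at -0.60 and Irak2 at -0.49. These 5 passed with all 7 arrays, and none of the 20 did without replicates 5 to 7, where Tab3 was at 0.02, Tab1 at -0.001, Card10 at 0.24, Traf5 at -0.35 and Irak2 at -0.06, with adjusted p-values of 0.0882 to 0.997 in limma.

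The genes whose ratios over the 20 arrays were most like the mean of the 7 members with complete values were Adam8, Nr4a2, Hexim1, Rcor2 and Cdh13, with Pearson correlations of 0.878 to 0.916 among 14375 genes compared. The points share arrays and include the 2 sets at 48 h, and over the 17 arrays without 48 h replicates 5 to 7 the correlations were 0.699 to 0.803. These genes were picked for following a mean that is highest at 48 h, so their ratios there are a description: they were 0.51 to 1.03 with all arrays, and 0.28 to 0.67 without replicates 5 to 7. The mean of the 7 members was -0.02 to 0.12 on the 12 h arrays, -0.08 to 0.27 on the 24 h arrays, 0.26 to 0.34 on 48 h replicates 1 to 4 and 0.46 to 0.54 on replicates 5 to 7. Within that mean the genes differed: at 48 h replicates 1 to 4 held the higher Cxcl1 ratios and replicates 5 to 7 the higher Icam1 ratios.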

How the data were processed

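Per the labels' protocols, NICD1 and empty vector RNA carried opposite Cy dyes on each of 20 dual-colour Agilent arrays. The authors deposited a table of log2 ratios with 45220 rows; the log base was judged from the values. limma was used upstream, per the submitters' processing notes; no source used here gives its version, the background correction, the normalisation, the direction of the ratios or why 14.2% of values are missing. The medians of the columns were within -0.0179 and 0.0195, and the number of arrays (37041 to 40068 values each) limits the precision. Rows were named from the platform annotation, which can be old: 33653 rows had 1 symbol, 56 several and 11511 none. Updating symbols through Entrez identifiers changed 0 of 33517 matched rows.

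Columns 12 h replicate 3 and 48 h replicate 3 were multiplied by -1, because Notch targets and dye patterns pointed the other way in them as deposited. Rows of a gene were averaged, each with values on at least 4 arrays of every time. The model, fitted by limma 3.58.1 (R 4.3.3) to all 20 arrays, had a coefficient for each time and a dye term, and moderated two-sided p-values were adjusted by Benjamini-Hochberg over 17051 genes, with 0.05 as the threshold. On simulated data of this design, a log2 ratio of 1 was recovered for 78% of genes at 12 h, 78% at 24 h and 84% at 48 h, and a ratio of 0.5 for 22%, 28% and 34.5%. A difference between 24 and 48 h was recovered for 57% of genes at a size of 1 and 1.5% at 0.5. The simulated arrays were independent with the same spread at all times, and 200 of 17051 genes were changed. They held no set of arrays like 48 h replicates 5 to 7, so the figures that involve 48 h may not hold for these data. The members and the gene lists were chosen with earlier results of these data known. From each of the 7 lists up to 5 genes were named, those with the greatest ratio among genes that passed, together with the 5 genes most like the members and the reference genes Nrarp, Ifnb1 and Il6; Col1a1 and Abca3 are from the list of cell type markers. Alternatives covered the turned arrays, the dye term, 48 h replicates 5 to 7, single times, filters, scaling, array weights, the summary of rows, a replicate block and each array left out. The 300-base promoter windows are from RefSeq, GRCm38.p6.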

Additional observations from a re-analysis of the deposited data

Results flagged for a closer look

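In 24 groups of a gene at a time, 2 arrays stood far from the others by Dixon's test, which chance does in about 1 of 20 groups. Nfkb2 on 12 h replicate 1 had a log2 ratio of -0.37, while the other 5 arrays lay between 0.07 and 0.15. Ccl20 on 24 h replicate 1 had a log2 ratio of -0.34 (-0.335), while the other 6 lay between 0.39 and 0.86. With that array left out, Ccl20 passed at 24 h in limma, with an adjusted p of 0.00418.

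The ratio of Nfkb2 differed between 12 and 48 h by 0.61 (limma, adjusted p = 0.0398), a difference tested directly. Without 1 array at a time the adjusted p of this difference ran from 0.00341 to 0.103.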

How the results depend on the processing

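Of the 8 genes, 0 passed at 12 h, 1 at 24 h, 5 at 48 h and 0 in the difference between 24 and 48 h. At 24 h the count was 0 with the 2 turned arrays as deposited (1.06% of all genes passed) and 0 with that time fitted alone (1.52%). It was 2 with array weights (2.95%), which added Ccl20. At 48 h the count was 3 with the turned arrays as deposited (Nfkb2, Relb and Ccl20), where 24.2% of all genes passed. It was 3 with columns scaled to equal spread (18.8%) and 3 with array weights (19.7%), Nfkbia, Nfkb2 and Ccl20 in both. Without replicates 5 to 7 it was 2 (3.69%). With 48 h fitted alone it was 0, where 1.37% of all genes passed and the lowest adjusted p among the 8 was 0.0603 by limma. In the main fit the 3 times share 1 estimate of each gene's spread. Fitted alone, a time has its own estimate, from fewer arrays. At 48 h, with the same 7 arrays in both fits, the SE fitted alone was higher for each of the 8 genes but Cxcl2. It was 0.18 against 0.12 for Nfkb2, 0.16 against 0.11 for Relb and 0.14 against 0.10 for Tnfaip3. The main 48 h SE and adjusted p of Nfkb2, Relb and Tnfaip3 thus drew on narrower spreads at the earlier times. Between 24 and 48 h the count was 1, Nfkb2, without the turned arrays, where 11.1% of all genes passed. It was again 1, Nfkb2, with rows measured on all 20 arrays (9.36%), a filter that leaves out Cxcl2. Leaving out 1 array at a time gave 0 to 0 at 12 h, 0 to 2 at 24 h, 3 to 6 at 48 h, 0 to 0 from 12 to 24 h, 0 to 1 from 24 to 48 h and 0 to 2 from 12 to 48 h. The share of all genes that passed then ran from 1.44% to 1.77% at 24 h and from 17.5% to 31.3% at 48 h. Between 24 and 48 h it ran from 0.0528% to 12.3%, and between 12 and 48 h from 3.47% to 15.8%. In those 20 fits Nfkbia, Nfkb2 and Ccl20 passed at 48 h in 20, and Relb and Tnfaip3 in 16 each. Relb was lost without 48 h replicate 4, 5, 6 or 7 (adjusted p up to 0.11) and Tnfaip3 without 48 h replicate 2, 5, 6 or 7 (up to 0.114), while Icam1 passed in 3, without 48 h replicate 1, 3 or 4. Replicate numbers are shared between times but did not pair the arrays: same-numbered arrays correlated at -0.132 to 0.139, and 1 array was closest to its own number. With a replicate block, 0 of the 8 genes passed at 24 h (Nfkbia, adjusted p = 0.0575 by limma) and 4 at 48 h, beside 1.49% and 25.6% of all genes. No ratio of the 8 genes that passed changed sign in the alternatives run; of the other named genes, Tab1 at 48 h did, from 0.47 to -0.001 without replicates 5 to 7. The 48 h count was 6, with Icam1 added, without the turned arrays (Icam1, adjusted p = 0.0449 by limma), with rows measured on all 20 arrays (0.0388) and without its row of the other accession (0.0446). In these settings 30.7%, 38.5% and 27.8% of all genes passed. The causes of these changes were not tested. The ratios carry no intensity, and signal over background is unknown.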
